A study of Mus musculus with 7 samples.

Results

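Replication-dependent histone genes encode the H1, H2A, H2B, H3 and H4 proteins that package newly made DNA. They were taken here as the protein-coding genes of the GENCODE M21 annotation whose symbols begin with Hist1h, Hist2h, Hist3h or Hist4h. Of 67 such genes, 65 were among the 49315 genes of the count table, and Hist1h2bh and Hist1h2bm were not analysed here. The 65 comprise 6 H1, 18 H2A, 16 H2B, 12 H3 and 13 H4 genes. Enough reads for a test were counted for 5 H1, 14 H2A, 12 H2B, 9 H3 and 12 H4 genes, which makes 52 of the 17920 genes tested. RNA came from mouse bone marrow after chow feeding and hindlimb ischemia, a surgical block of blood flow to a hind leg, in both groups. The KO group (4 libraries) lacked the microRNA cluster miR-181a2b2 (miR-181a2b2-/-), and the flox group (3 libraries) carried floxed alleles of it (miR-181a2b2flox/flox), that is, alleles flanked by recombination sites. The labels used here give no strain, age or sex. They do not say whether each library is a different animal; a p-value here therefore covers the spread among the 7 libraries, and part of that spread may be technical. Mir181a-2 and Mir181b-2 were listed at 0 counts in all 7 libraries. Mature microRNAs are not retained by poly(A) selection, so the deletion could not be checked in these counts.

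H2A, H2B, H3 and H4 form the core of the nucleosome, and H1, the linker histone, binds where DNA enters and leaves it. Cells make these proteins mostly in S phase, when DNA is copied, and bone marrow holds many dividing blood cell precursors. Most messenger RNAs end in a poly(A) tail, but those of replication-dependent histone genes usually end just past a short stem-loop in the RNA, which the stem-loop binding protein SLBP holds for processing, translation and decay. The same genes can also give polyadenylated transcripts, above all in cells that have left the cycle. The libraries were made by poly(A) selection, so what was counted from a histone gene is the part of its RNA that came through that selection and not its whole output.

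The genes lie in clusters. The Hist1 cluster on chromosome 13 held 52 of the 65 genes (chr13:21715763-23934851, GRCm38), the Hist2 cluster on chromosome 3 held 10 (chr3:96219865-96270132), the Hist3 cluster on chromosome 11 held 2 (chr11:58948920-58956830), and Hist4h4 lies alone on chromosome 6 (chr6:136801553-136804415). The annotated transcripts carried the stem-loop between the stop codon and the transcript end in 44 of the 65 genes. It was searched as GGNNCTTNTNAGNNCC on the transcript strand, where N is any base, and was found in 67.7% of the histone genes against 0.440% of 21123 protein-coding genes with annotated sequence past the stop codon, histone genes included. It began 21 to 58 bases past the stop codon, with a median of 31.5. In 15 of the 21 genes without a match, fewer than 16 bases were annotated past the stop codon, so the motif could not be found there. Shown are the 3 commonest forms and those of Hist1h4i, Hist2h4 and Hist1h4j, H4 genes described further on, with the paired stem arms in capitals and the loop in lower case, as read from GENCODE M21 transcripts.
Hist1h2bg, Hist1h2bp, Hist1h1c and 21 other genes: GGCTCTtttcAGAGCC
Hist1h3c, Hist1h3e and 4 other genes: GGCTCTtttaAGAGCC
Hist1h4c and 6 other H4 genes: GGCCCTtttcAGGGCC
Hist1h4i and Hist2h4: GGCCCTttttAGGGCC
Hist1h4j and Hist1h4b: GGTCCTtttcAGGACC

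Most histone genes had slightly higher counts in KO marrow, and no single gene passed the test over all genes. The fitted log2 fold change, KO minus flox, was above 0 for 47 of the 52 tested genes (90.4%), against 48.1% of all 17920 genes. Its median over the histone genes was 0.28, with a range of -0.21 to 1.33, against a median of -0.01 over all tested genes. With single libraries left out, the number above 0 was lowest at 41 of 52 without KO 3, and 42 of 52 without KO 1. The genes were measured in the same 7 libraries and in part share sequence, so they are not independent observations. With edgeR's quasi-likelihood test and Benjamini-Hochberg adjustment over all genes, 0 of the 52 had an adjusted p under 0.05, against 0.145% of all genes (26 genes), and the lowest adjusted p was 0.155, for Hist1h2bp. DESeq2 called 1 of the 52, Hist1h2bg, against 2.04% of all genes (365 genes), and limma-voom called 0, against 0.0725% (13 genes). At an unadjusted edgeR p under 0.05, 8 of the 52 were higher in KO (15.4%, against 5.89% of all genes) and 0 were lower (against 8.17%). These 8 were Hist1h1a, Hist2h2ac, Hist1h2bg, Hist1h2bp, Hist1h2bn, Hist1h3b, Hist1h4j and Hist2h4. The count of 8 moved with single libraries: it was 14 without KO 2, 5 without KO 3, 5 without KO 4 and 3 without flox 3. The share of all genes at this level is not given for those fits. Over all genes, the number with an adjusted p under 0.05 moved as well. From 26 it went to 2 without KO 2, 2 without KO 3, 4 without KO 4 and 3 without flox 3. That number is at another threshold than the count of 8, and without KO 2 they moved in opposite directions. Whether the count of 8 moved through the histone genes or through the fit of all genes can therefore not be told. In 5 genes every KO library lay above every flox library (9.62%, against 6.22% of all genes), and in 0 genes every KO library lay below (against 7.41%).

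**Figure D1:**
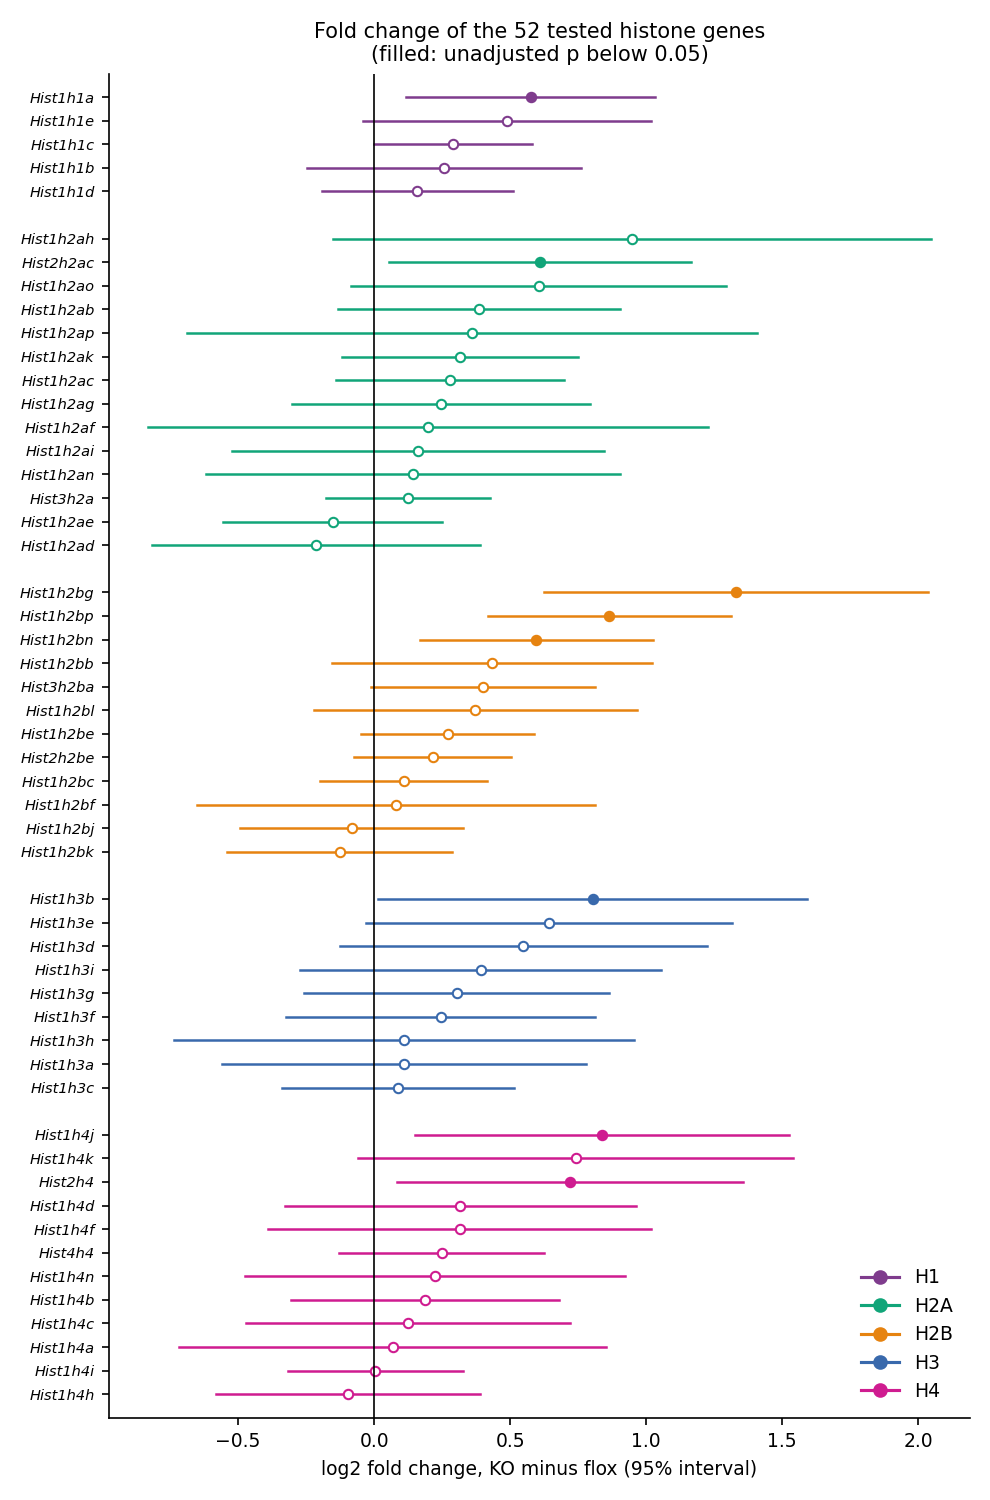
Log2 fold change, KO minus flox, of the 52 tested histone genes on the horizontal axis, grouped by family, with 95% intervals from the edgeR fit; filled points have an unadjusted p under 0.05. The points of 47 genes lie right of 0, and Hist1h2bg stands farthest right at 1.33.

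Each family leaned the same way. The median log2 fold change was 0.29 for H1 (5 of 5 tested genes above 0), 0.26 for H2A (12 of 14), 0.32 for H2B (10 of 12), 0.30 for H3 (9 of 9) and 0.24 for H4 (11 of 12). The 5 genes below 0 were Hist1h2ad (-0.21), Hist1h2ae (-0.15), Hist1h2bk (-0.13), Hist1h4h (-0.10) and Hist1h2bj (-0.08), named after their values were seen. Their unadjusted p was above 0.05 in each case.

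The counts were also summed by family. How reads that fit several near-identical copies were treated is not stated: a shared read assigned to 1 copy would mostly stay within its family's sum, and a dropped read would be missing from it. Hist1h1e and Hist1h2be, of different families, also overlap on the same strand. Summed over all 65 genes, histone counts had a CPM of 443, 442, 483 and 419 in KO libraries 1 to 4, and of 415, 325 and 371 in flox libraries 1 to 3. CPM is the usual counts-per-million scale, on TMM-scaled library sizes. The mean was 446 ± 26.6 CPM in KO (SD, n = 4) and 370 ± 44.9 CPM in flox (SD, n = 3), a ratio of 1.21 (log2 0.27), and the groups did not overlap. KO 4, the lowest KO library, and flox 1, the highest flox library, differed by less than the SD of either group. KO 3 was the highest library and flox 2 the lowest.

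H1 genes summed to 216, 231, 216 and 210.0 CPM in KO and 206, 142 and 187 CPM in flox (log2 ratio 0.29), with no overlap. Without Hist1h1c, the H1 sum did overlap, at 22.8, 14.3, 17.4 and 19.2 CPM in KO and 13.8, 15.9 and 13.7 CPM in flox (0.35). The sum of all histone genes without Hist1h1c did not overlap. It was 250.1, 224.7, 283.6 and 227.7 CPM in KO and 223.2, 199.3 and 197.5 CPM in flox (0.25). H2B genes summed to 108, 110.2, 127 and 110.4 CPM in KO and 104, 75.6 and 94.5 CPM in flox (0.32), also with no overlap. H2A genes summed to 60.7, 55.4, 75.7 and 46.3 CPM in KO and 53.2, 61.6 and 41.4 CPM in flox (0.19), and the groups overlapped. So did the sums of the H3 genes, at 15.8, 10.3, 16.03 and 14.0 CPM in KO and 11.2, 12.9 and 9.74 CPM in flox (0.31). H4 genes summed to 42.8, 34.6, 47.8 and 37.8 CPM in KO and 40.6, 33.3 and 38.1 CPM in flox (0.12), and overlapped too. The make-up of the histone counts differed little between groups: H1 took a mean of 49.0% in KO and 47.9% in flox, H2B 25.5% in KO and 24.6% in flox, H2A 13.3% in KO and 14.3% in flox, H4 9.10% in KO and 10.1% in flox, and H3 3.14% in KO and 3.10% in flox.

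**Figure D2:**
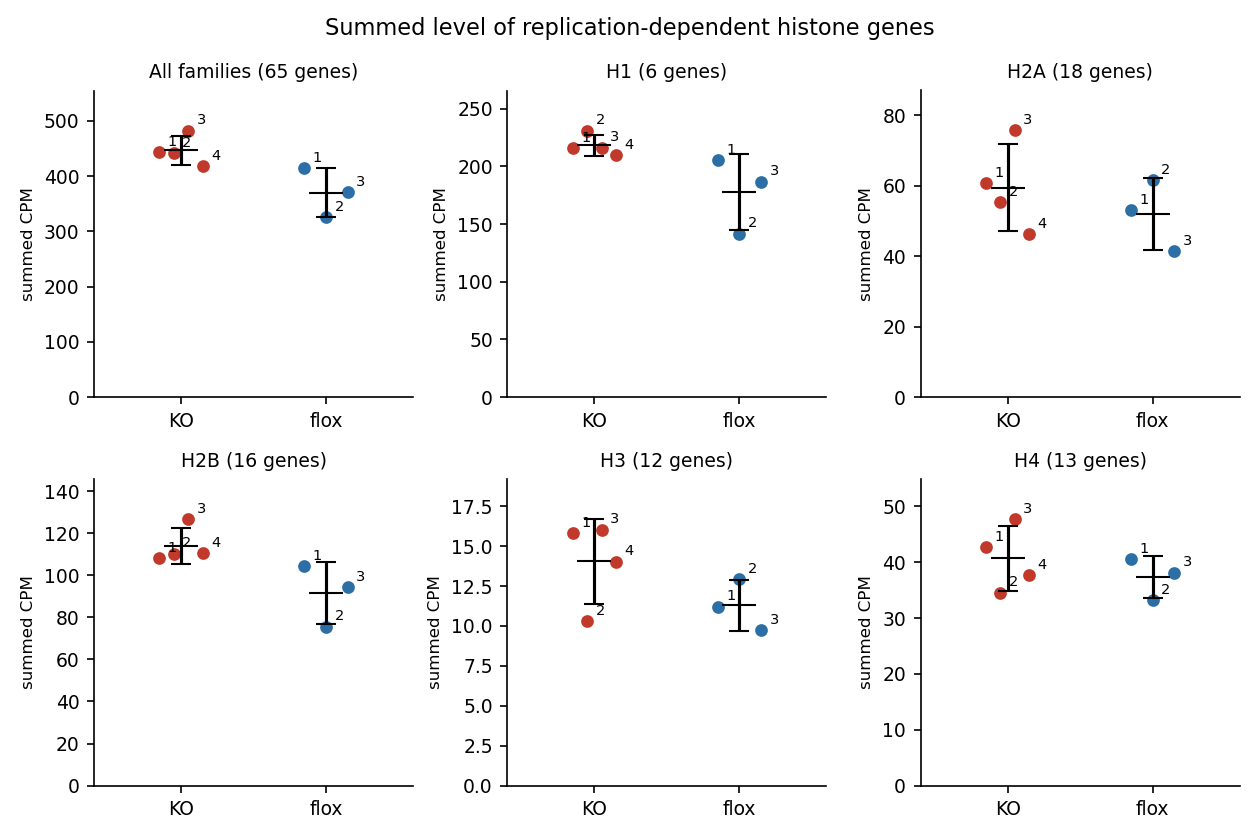
Summed CPM per library (vertical axes, from 0) of all 65 histone genes and of each family, KO left of flox; numbered points are libraries, and bars show the mean and SD. The KO and flox points are apart for all genes together, H1 and H2B, and overlap for H2A, H3 and H4.

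Single genes made a large part of several of these sums. Hist1h1c, the gene for linker histone H1.2, gave 38.7% to 49.1% of all histone counts in a library and 88.8% to 93.8% of the H1 counts. Hist1h2af gave 32.9% to 60.6% of the H2A counts, Hist1h2bc 33.7% to 44.5% of the H2B counts, and Hist1h4i 57.1% to 70.3% of the H4 counts. Levels of different genes were compared per kilobase of merged exon, as the mean CPM per kilobase over the 7 libraries. On that scale 6 of the 52 tested genes reached 10: Hist1h1c at 118, Hist1h2af at 70.2, Hist1h2bc at 35.1, Hist1h4i at 33.8, Hist3h2ba at 23.4 and Hist1h2bg at 18.7 CPM per kilobase. The other 46 lay between 0.545 and 8.69 CPM per kilobase. This order depends on the annotated exon lengths. Hist1h1d, with 7425 bases and 1536 counts in all, was at 0.626, and Hist1h1b, with 743 bases and 1414 counts, at 5.75. In raw counts, 27 tested genes had under 100 in every library, and 5 had at least 500 in every library.

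**Figure D3:**
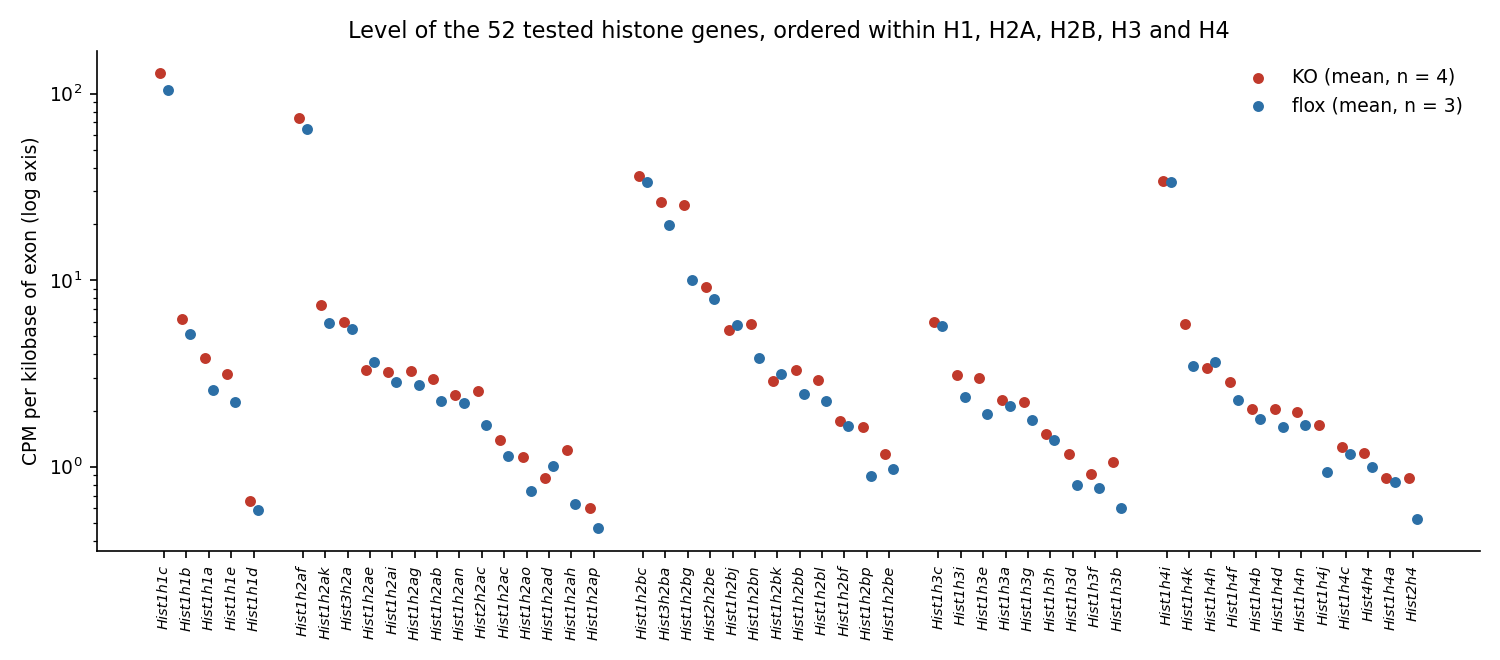
Mean CPM per kilobase of exon in KO (left point of each pair, n = 4) and flox (right point, n = 3) for the 52 tested histone genes, on a log axis, ordered by level within each family. Each family has 1 or a few genes far above its other members, except H3, whose highest gene, Hist1h3c, stood at 5.85 CPM per kilobase.

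Among the H1 genes, Hist1h1c (chr13:23738808-23740367) stood at 193, 217, 199 and 191 CPM in KO and 192, 126 and 173 CPM in flox. KO 4 lay just under flox 1, so the groups overlapped, and flox 2 was the lowest library. The log2 fold change was 0.29 (SE 0.13, edgeR adjusted p = 0.36; exact permutation p = 0.0571, two-sided, where the smallest possible p over the 35 ways to choose the KO libraries is 0.0286). Without flox 2 the log2 fold change was 0.15, and without flox 1 it was 0.42. Hist1h1a, the gene for H1.1 (chr13:23763666-23764406), was lower by far, at 3.63, 2.71, 2.54 and 2.48 CPM in KO and 1.71, 1.70 and 2.31 CPM in flox. Every KO library was above every flox library, with KO 1 highest (0.57, SE 0.21, edgeR adjusted p = 0.274). Hist1h1e, the gene for H1.4, stood at 7.19, 4.03, 6.05 and 6.90 CPM in KO and 3.25, 5.47 and 4.19 CPM in flox, and KO 2 fell among the flox values (0.49, SE 0.24, adjusted p = 0.386). Hist1h1b, the gene for H1.5, stood at 6.6, 3.48, 3.98 and 4.33 CPM in KO and 4.20, 4.06 and 3.27 CPM in flox, with KO 2 and KO 3 within the flox range (0.26, SE 0.23, adjusted p = 0.676; 0.03 without KO 1). The testis-specific linker histone gene Hist1h1t had 0 to 8 counts per library and was not tested.

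Among the H2A genes the most abundant, Hist1h2af (chr13:23533906-23534304), varied widely within both groups. It stood at 30.1, 27.3, 45.9 and 15.2 CPM in KO and 24.7, 36.4 and 16.3 CPM in flox, and the lowest and the highest library were both KO (0.20, SE 0.42, adjusted p = 0.892). Of the 50-base stretches of its annotated transcripts, 6% occur in no other annotated gene on either strand. Most of its sequence thus also lies in another annotated gene, and its level depends on how shared reads were assigned. Other H2A copies were not separated here from Gm44297, which overlaps Hist1h2af on the opposite strand. Without Hist1h2af, the H2A sum was steadier, at 30.6, 28.0, 29.8 and 31.1 CPM in KO and 28.5, 25.2 and 25.1 CPM in flox, with KO 2 between the flox values. Hist2h2ac, in the Hist2 cluster (chr3:96220361-96220880), was the H2A gene whose groups did not overlap, at 1.22, 1.39, 1.39 and 1.30 CPM in KO and 1.08, 0.963 and 0.556 CPM in flox (0.61, SE 0.25, adjusted p = 0.320). Hist1h2ah had the largest fitted fold change of the family (0.95, SE 0.49, adjusted p = 0.420), on 13, 16, 30 and 32 counts in KO and 5, 16 and 16 counts in flox, and overlapped. Hist1h2ao gave 0.60 (SE 0.31, adjusted p = 0.412) on 19 to 32 counts in KO and 13 to 20 counts in flox, also with overlap. Hist1h2ak, next to Hist1h2af in level at 6.72 CPM per kilobase, stood at 2.72, 2.20, 3.08 and 3.55 CPM in KO and 2.33, 2.48 and 2.14 CPM in flox (0.32, SE 0.19, adjusted p = 0.508). In 17 of the 18 H2A genes, and in 0 genes of the other families, an exon overlaps a predicted microRNA gene of the annotation, and whether reads were counted by strand is not stated in the labels or notes, so reads of such neighbours cannot be told apart.

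The H2B family held the largest fitted fold change, and 3 of the 5 genes whose groups did not overlap. Hist1h2bg (chr13:23571396-23572013, plus strand) had 942, 694, 757 and 507 counts in KO and 446, 298 and 168 counts in flox, which is 19.9, 14.8, 16.2 and 11.5 CPM in KO and 8.88, 6.11 and 3.59 CPM in flox. All 4 KO libraries were above all 3 flox libraries, and the spread within each group was wide. The mean was 15.6 ± 3.45 CPM in KO (SD, n = 4) and 6.19 ± 2.65 CPM in flox (SD, n = 3), 2.52 times as high in KO (log2 fold change 1.33, SE 0.31, 95% interval 0.62 to 2.04, edgeR adjusted p = 0.183; exact two-sided permutation p = 0.0286, the smallest possible). DESeq2 gave 1.35 with an adjusted p of 0.000163, and the adjusted p ranged from 0.105 to 0.336 in edgeR when single libraries were left out. Hist1h2bg supplied 10.5% to 18.4% of the H2B counts in KO and 3.80% to 8.52% in flox. Without it the H2B sum overlapped between groups, at 88.1, 95.4, 111 and 98.9 CPM in KO and 95.5, 69.5 and 90.9 CPM in flox (log2 ratio 0.20 in place of 0.32). Without Hist1h2bc instead, the H2B sum stayed apart. It was 71.64, 66.69, 78.45 and 70.95 CPM in KO and 60.69, 44.82 and 52.42 CPM in flox (log2 ratio 0.45). Of the 50-base stretches of Hist1h2bg, 50.3% occur in no other gene.

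Hist1h2bp (chr13:21787461-21789213) was low but steady, at 1.16, 1.13, 1.13 and 1.18 CPM in KO and 0.637, 0.574 and 0.684 CPM in flox, from 52 to 55 counts in KO and 28 to 32 counts in flox. The gap between the groups was wider than the whole range within either group (0.86, SE 0.20, 95% interval 0.42 to 1.31, edgeR adjusted p = 0.155, exact two-sided permutation p = 0.0286). At so few counts, the counting error of a single library is larger than these ranges. They are thus no measure of the spread between libraries. Hist1h2bn (chr13:21754123-21754503) stood at 2.26, 1.94, 2.54 and 2.12 CPM in KO and 1.57, 1.62 and 1.197 CPM in flox, with no overlap (0.60, SE 0.19, adjusted p = 0.241), and 13.6% of its 50-base stretches are its own. Hist1h2bc, the highest of the family, stood at 36.4, 43.5, 48.2 and 39.5 CPM in KO and 43.6, 30.8 and 42.1 CPM in flox and overlapped (0.11, SE 0.14, adjusted p = 0.792; -0.02 without flox 2). Hist3h2ba, in the Hist3 cluster, stood at 13.5, 14.0, 20.1 and 16.6 CPM in KO and 13.9, 9.10 and 13.4 CPM in flox, with KO 1 under flox 1 (0.40, SE 0.18, adjusted p = 0.367).

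**Figure D4:**
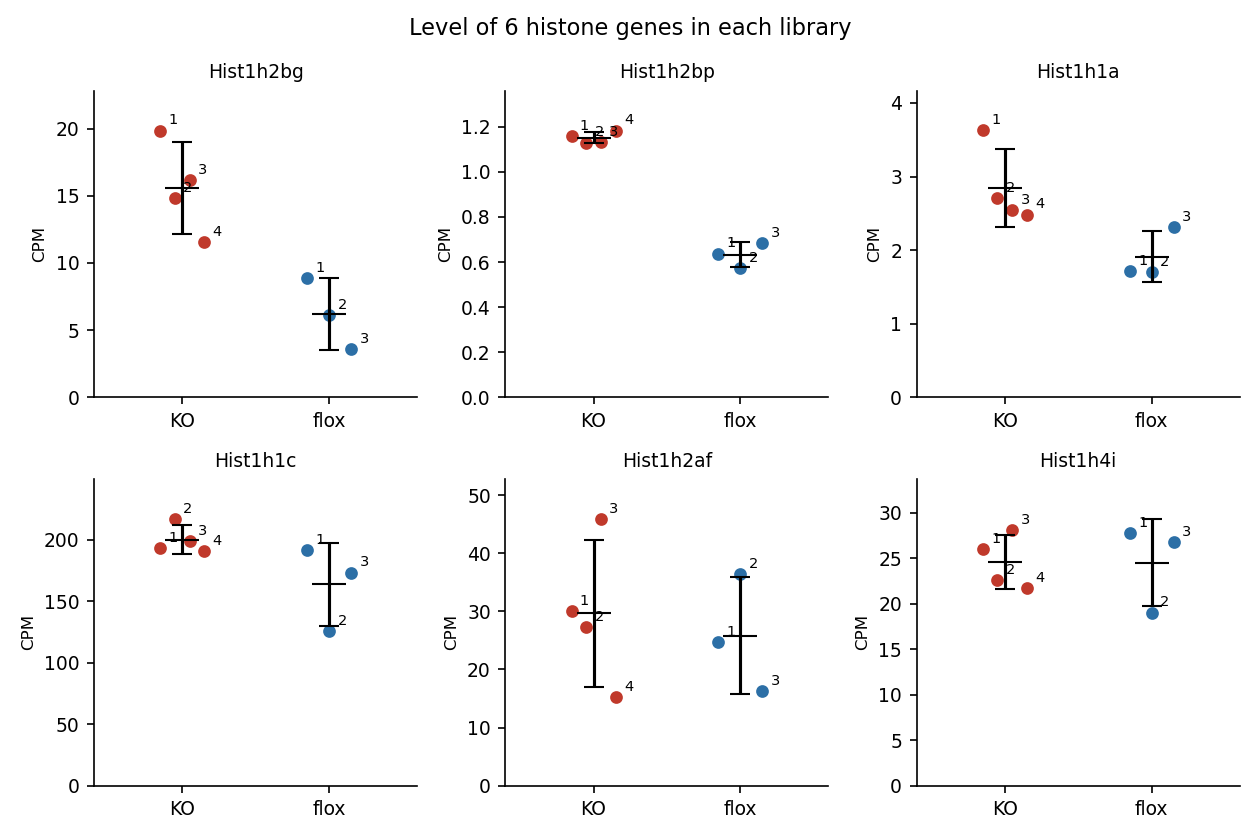
CPM per library (vertical axes, from 0) of Hist1h2bg, Hist1h2bp, Hist1h1a, Hist1h1c, Hist1h2af and Hist1h4i, KO left of flox, with the mean and SD; numbers are library numbers. The groups are apart for Hist1h2bg, Hist1h2bp and Hist1h1a, and overlap for the abundant Hist1h1c, Hist1h2af and Hist1h4i.

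Many H2A and H2B genes stand back to back and are read in opposite directions from a short shared stretch of DNA, and 12 such pairs with starts at most 1000 bases apart were found, each of 1 H2A and 1 H2B gene. In 9 pairs both genes were tested. The closest pair, 175 bases apart, was Hist1h2ae and Hist1h2bg, and it was also the pair whose partners differed most, at a log2 fold change of -0.15 for Hist1h2ae and 1.33 for Hist1h2bg. Hist1h2ae stood at 2.66, 2.41, 2.03 and 2.14 CPM in KO and 2.61, 2.93 and 2.16 CPM in flox, and the groups overlapped. The counts of Hist1h2bg were 7.48, 6.14, 7.97 and 5.39 times those of Hist1h2ae in KO and 3.41, 2.08 and 1.66 times those in flox, so the ratio within a library did not overlap between the groups either; this pair was picked after its values were seen. In the pair Hist1h2an and Hist1h2bp, 242 bases apart, the values were 0.14 and 0.86, and the ratio of Hist1h2bp to Hist1h2an counts overlapped, at 0.803 to 1.77 in KO and 0.500 to 0.970 in flox. In the pair Hist1h2ak and Hist1h2bn, 295 bases apart, they were 0.32 and 0.60. The H2B gene had the higher value in 5 of the 9 pairs and the H2A gene in the other 4. Those 4 were Hist1h2ah and Hist1h2bk (0.95 and -0.13), Hist2h2ac and Hist2h2be (0.61 and 0.22), Hist1h2ag and Hist1h2bj (0.25 and -0.08), and Hist1h2ac and Hist1h2bc (0.28 and 0.11). In the remaining pairs, the values were -0.21 for Hist1h2ad and 0.08 for Hist1h2bf, and 0.16 for Hist1h2ai and 0.37 for Hist1h2bl.

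The stretches upstream of Hist1h2bg and Hist1h2bp are shown because these were the 2 histone genes with the lowest p. They are from the RefSeq promoter table (GRCm38.p6, plus strand, so the H2B gene is read to the right), at chr13:23571221-23571395 (all 175 bases) and chr13:21787238-21787460 (the 223 of 242 bases that the table holds). Capitals mark CCAAT boxes, TATAAA boxes and the octamer ATTTGCAT on either strand; the octamer is the element through which OCT1, the product of Pou2f1, acts on H2B promoters.
Hist1h2ae to Hist1h2bg: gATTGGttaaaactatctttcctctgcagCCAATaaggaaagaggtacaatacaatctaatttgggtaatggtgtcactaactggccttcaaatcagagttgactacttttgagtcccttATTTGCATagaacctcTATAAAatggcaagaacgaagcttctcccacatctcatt
Hist1h2an to Hist1h2bp: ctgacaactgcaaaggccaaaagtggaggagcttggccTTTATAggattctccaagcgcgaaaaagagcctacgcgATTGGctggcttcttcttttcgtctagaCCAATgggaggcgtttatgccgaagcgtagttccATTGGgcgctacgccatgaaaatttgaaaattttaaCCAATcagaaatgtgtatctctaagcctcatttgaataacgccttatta

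The first stretch holds CCAAT at 2 places, TATAAA at 1 and the octamer at 1, and the second holds CCAAT at 4, TATAAA at 1 and the octamer at 0. RefSeq promoter windows (250 bases before to 50 after a gene's start) were matched for 60 of the 65 histone genes, and windows of back-to-back genes share bases. On either strand, CCAAT was in 51 of the 60 (85.0%, against 37.8% of the windows of 26965 other genes), TATAAA in 35 (58.3%, against 14.1%) and the octamer in 12 (against 1.71% of the others). The families differed in this: CCAAT was in all 6 H1, 18 H2A, 14 H2B and 10 H3 windows and in 3 of 12 H4 windows, and the octamer was in 7 H2A and 5 H2B windows and in 0 of the others. Among the H2B genes with a matched window, 3 tested ones had the octamer, Hist1h2bg (1.33), Hist1h2bb (0.43) and Hist1h2bk (-0.13). Another 7 tested ones did not, with log2 fold changes of -0.08 to 0.86. Hist1h2bc (0.11) and Hist2h2be (0.22) were tested too but had no matched window, so this split leaves them out. The windows of their back-to-back partners, Hist1h2ac and Hist2h2ac, hold the octamer. The motifs were chosen with the fold changes known, and a match is a run of letters, not a bound site.

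The H3 genes were all low, and none of them had groups apart. Hist1h3b stood at 0.611, 0.448, 0.684 and 0.888 CPM in KO and 0.538, 0.348 and 0.235 CPM in flox, on 11 to 39 counts (log2 fold change 0.80, SE 0.35, edgeR adjusted p = 0.348). KO 2 lay under flox 1, and the other KO libraries lay above all flox libraries. Hist1h3e stood at 2.47, 1.86, 3.16 and 2.53 CPM in KO and 1.22, 2.46 and 1.13 CPM in flox, and flox 2 reached into the KO range (0.64, SE 0.30, adjusted p = 0.374). Hist1h3d gave 0.55 (SE 0.30, adjusted p = 0.449) at 0.917 to 1.89 CPM in KO and 0.656 to 1.27 CPM in flox. The 2 H3 genes with the highest level per kilobase were Hist1h3c, at 2.88 to 4.83 CPM in KO and 3.33 to 3.89 CPM in flox (0.09, SE 0.19, adjusted p = 0.893; -0.05 without KO 1), and Hist1h3i (0.39, SE 0.30, adjusted p = 0.614).

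The H4 genes are known to encode nearly all the same protein, and the most abundant of them was level between the groups. The rarer ones named here, Hist1h4j, Hist2h4 and Hist1h4k, had higher means in KO. They were picked for the lowest p in this comparison, so they do not stand for the rarer H4 genes. Of the 12 tested H4 genes, 11 were above 0, and Hist1h4h was at -0.10. Hist1h4i (chr13:22040636-22041362) stood at 25.97, 22.6, 28.1 and 21.7 CPM in KO and 27.8, 19.0 and 26.8 CPM in flox, with a log2 fold change of 0.00 (SE 0.14, 95% interval -0.32 to 0.33, adjusted p = 0.995). The sum of the other H4 genes was 16.8, 12.0, 19.7 and 16.1 CPM in KO and 12.9, 14.3 and 11.4 CPM in flox, where only KO 2 lay under a flox library (log2 ratio 0.33). Hist1h4j stood at 1.37, 0.725, 1.43 and 1.66 CPM in KO and 0.916, 0.615 and 0.641 CPM in flox (0.84, SE 0.31, adjusted p = 0.283), and again KO 2 alone lay within the flox range. Hist2h4, in the Hist2 cluster, stood at 1.48, 0.853, 1.95 and 1.37 CPM in KO and 0.936, 0.902 and 0.726 CPM in flox (0.72, SE 0.28, adjusted p = 0.308), with the same library low. Hist1h4k gave 0.74 (SE 0.36, adjusted p = 0.386) on 53 to 115 counts in KO and 26 to 72 counts in flox. Hist1h4i and Hist2h4 share 1 form of the stem-loop, shown above, and had log2 fold changes of 0.00 and 0.72.

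Of the 13 genes below the test's filter, 7 were at 0 in every library, where 3 counts per library would be 0.0580 to 0.0696 CPM. Of these 7, Hist2h2aa1, Hist2h2aa2, Hist2h2bb, Hist2h3b and Hist2h3c1 are also the 5 histone genes with no 50-base stretch of their own. Reads from them fit another gene equally well, and a count of 0 does not show that they were silent. That gene can be another histone copy or a gene annotated at the same place. Hist2h2aa1 and Hist2h3c1 overlap Gm20634 on the same strand, and Hist2h2bb overlaps Gm42743. Which of these led to the counts of 0 was not tested. The other 2 at 0 were Hist1h2aa and Hist1h2ba, known as testis forms of H2A and H2B. The remaining 6 were Hist1h1t, Hist2h2ab, Hist1h2bq, Hist1h2br, Hist2h3c2 and Hist1h4m, with 0 to 17 counts per library.

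Splitting the tested genes by features that the choice of genes did not use left medians close to each other. Genes with at least 300 bases annotated past the stop codon had a median log2 fold change of 0.27 (17 of 17 above 0), and the rest 0.30 (30 of 35). Genes with at least 50% of 50-base stretches of their own had 0.26 (26 of 28), and the rest 0.31 (21 of 24). The 5 genes at a mean of 20 CPM or more had 0.20, and the 47 below had 0.30. Sums by level differed more in overlap. All 60 genes under 20 CPM made 135, 108, 137 and 124.5 CPM in KO and 103, 96.5 and 90.5 CPM in flox, with no overlap (log2 ratio 0.39). The 5 others made 308, 333, 346 and 294 CPM in KO and 312, 229 and 280 CPM in flox, with overlap (0.23). AATAAA, the commonest poly(A) signal, was in the last 50 bases of an annotated transcript in 14 of 48 histone genes (29.2%), against 68.9% of 20793 protein-coding genes. Summed by annotated length, the longer group made 328, 345, 349 and 329 CPM in KO and 327, 231 and 301 CPM in flox, apart by less than 1 CPM between KO 1 and flox 1. The shorter group made 115, 96.0, 134 and 89.7 CPM in KO and 87.6, 94.5 and 69.4 CPM in flox, with overlap. RNA classes that carry no poly(A) tail, such as small nuclear and nucleolar RNAs, summed to 135, 144, 137 and 158 CPM in KO and 130, 142 and 130 CPM in flox, with overlap (log2 ratio 0.10), and their part in the histone counts was not tested.

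Genes that work with histones had medians near 0. Of 11 tested replacement variants, which are made outside S phase too, 6 were above 0 and 5 below (median 0.03), and 0 had an unadjusted p under 0.05. H2afv, an H2A.Z form, had 88.5 ± 6.81 CPM in KO and 78.2 ± 7.14 CPM in flox (0.18), H3f3b, an H3.3 gene, 1083 ± 77.2 CPM in KO and 991 ± 56.1 CPM in flox (0.13), and H2afy2, a macroH2A gene, gave -0.45. Of 18 tested genes of histone gene transcription and 3′ end processing, 12 were above 0 and 6 below (median 0.07). That is 66.7% above 0, against 48.1% of all tested genes. In each direction 1 had an unadjusted edgeR p under 0.05, against 5.89% of all genes higher in KO and 8.17% lower. These were Mblac1, a histone mRNA endonuclease, at 3.51 ± 0.236 CPM in KO and 4.63 ± 0.532 CPM in flox (-0.40, SE 0.15, adjusted p = 0.280), and Pou2f1, the gene for OCT1, at 47.3 ± 2.65 CPM in KO and 40.2 ± 5.34 CPM in flox (0.23, SE 0.09, adjusted p = 0.318). Mif4gd, an SLBP partner in translation, gave 0.18. Slbp itself, named after its value was seen, stood at 199 ± 9.81 CPM in KO and 193 ± 23.7 CPM in flox (0.05). Histone chaperone genes split evenly, with 9 of 18 above 0 and a median of -0.00, the lowest p being those of Ipo4 (0.12), Anp32e (0.10) and Set (-0.10).

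Cell cycle genes had small fold changes, more often above 0 than all tested genes. S phase genes were above 0 in 33 of 43 (76.7%, against 48.1% of all tested genes), with a median of 0.05. At an unadjusted edgeR p under 0.05, 1 of the 43 was higher in KO, against 5.89% of all genes. It was Uhrf1, a factor that copies DNA methylation (0.24, SE 0.11, adjusted p = 0.353), followed by the DNA synthesis genes Prim1 (0.11) and Pold1 (0.12). The S phase genes summed to 6446, 6283, 7132 and 6689 CPM in KO and 6846, 5848 and 6619 CPM in flox, with overlap. KO 3 was the highest and flox 2 the lowest library here, as in the histone sum. G2 and M phase genes had a median of 0.02, with 15 of 21 above 0 (71.4%, against the same 48.1%). They were led by Bub1 (-0.10), Plk1 (-0.12) and Aurkb (0.07). As a list they summed to 6908 to 8219 CPM in KO and 6720 to 8358 CPM in flox.

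Total counts ran from 43110251 to 48320848 in KO and from 46151300 to 51688514 in flox. Bone marrow is a mixture, and in bulk RNA fewer cells of a type and less RNA per cell cannot be told apart. Marker levels of several cell types differed along with the groups. B lineage markers were above 0 in 15 of 15 (median 1.07) and summed to 985 to 1272 CPM in KO and 103 to 928 CPM in flox, flox 1 being the lowest. Erythroid markers were above 0 in 14 of 14 (0.19) and summed to 31960 to 42850 CPM in KO and 20470 to 34680 CPM in flox; KO 3 was the highest and flox 2 the lowest library, as in the histone sum. Neutrophil markers were below 0 in 15 of 15 (-0.38) and summed to 36650 to 46280 CPM in KO and 45870 to 65790 CPM in flox, flox 2 being the highest. T and NK cell markers had a median of 0.29 (9 of 10 above 0; 104 to 119 CPM in KO, 86.1 to 91.3 CPM in flox), monocyte and macrophage markers -0.14 (1 of 10; 1172 to 1480 CPM in KO, 1425 to 1694 CPM in flox), megakaryocyte markers -0.66 (0 of 10; 527 to 751 CPM in KO, 684 to 1283 CPM in flox), and stroma and bone markers -0.74 (1 of 10; 332 to 519 CPM in KO, 533 to 960 CPM in flox). Markers of intestinal epithelium, drawn from earlier calls on these data, were above 0 in 15 of 15 (1.25; 120 to 137 CPM in KO, 53.0 to 54.6 CPM in flox), and neuronal markers, drawn likewise, in 1 of 8 (-0.89; 11.3 to 13.5 CPM in KO, 14.1 to 17.1 CPM in flox). No marker found in the table was at 0 in all libraries, and the part of any of them in the histone values was not tested.

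**Figure D5:**
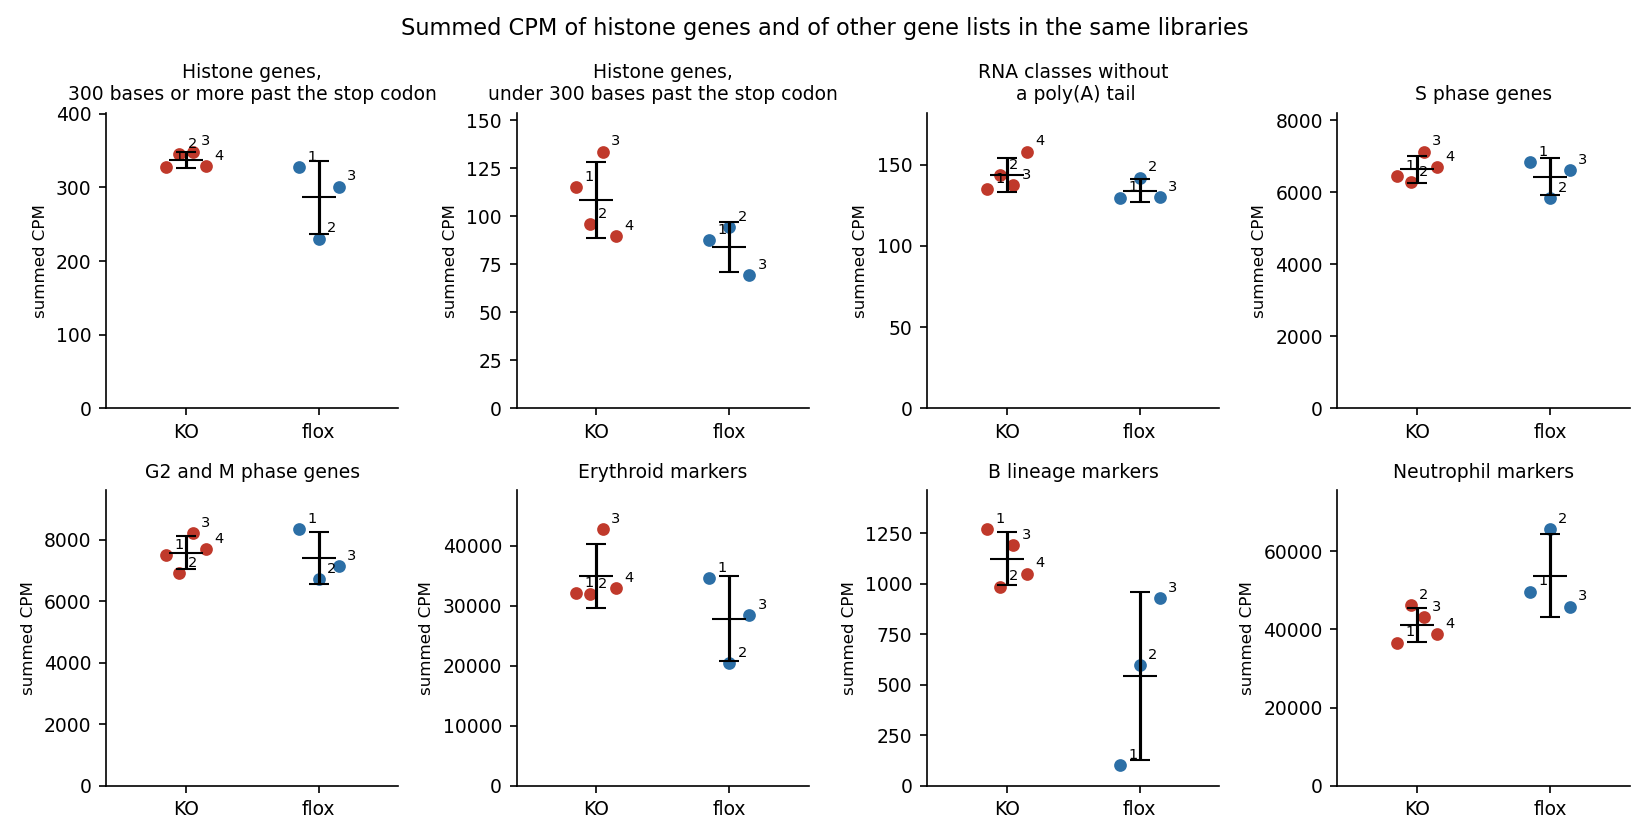
Summed CPM per library (vertical axes, from 0), KO left of flox, of histone genes split by annotated length past the stop codon and of 6 other groups of genes, with the mean and SD; numbers are library numbers. S phase genes, G2 and M phase genes and RNA classes without a poly(A) tail overlap between groups, while B lineage markers lie higher in all KO libraries.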

How the data were processed

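Poly(A)-selected RNA of 7 bone marrow libraries was sequenced, per the labels; the extraction label names white adipose tissue and the source label bone marrow, and the source label was followed. The authors deposited raw read counts per Ensembl gene, 43110251 to 51688514 per library. Per the submitters' processing notes, Trimmomatic 0.36, STAR 2.5.2b and featureCounts of Subread 1.5.2 were used with GRCm38. For the annotation release, the strand setting and reads that fit several genes, the sources used here state nothing. Of 49315 gene IDs, 49056 matched GENCODE M21, and 0 columns of samples were left unmapped.

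In R 4.3.3, counts were filtered with filterByExpr of edgeR 4.0.16 (minimum count 10), scaled with TMM and fitted with robust glmQLFit. KO was set against flox with glmQLFTest (two-sided; Benjamini-Hochberg over 17920 genes, threshold 0.05), at a biological coefficient of variation of 16.9%. Standard errors and 95% intervals follow from the F statistic and its degrees of freedom. CPM uses TMM-scaled library sizes, and the floor of 3 counts uses plain totals. Intervals cover the spread between libraries, and the floor counting error only. Between libraries of 1 group, chi-square divided by its degrees of freedom ran from 21.2 to 101, so no 2 libraries agreed within sampling noise. The script was tested on simulated data.

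Histone genes, gene lists and tests were chosen with earlier results of these data known. Named were the 3 tested genes of each family with the lowest p and the 2 with the highest CPM per kilobase, and up to 3 genes per other list; further names are said to be chosen later. Symplk, Zcchc11 and Ahsp were not found under those symbols. Alternatives were DESeq2 1.42.0 size factors, plain library size, 2 other filters, DESeq2, limma-voom (limma 3.58.1), a non-robust fit, a block for the replicate number, and each library left out in turn. The octamer search, family sums without 1 gene and ratios within pairs were added after the values were seen.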

Additional observations from a re-analysis of the deposited data

Results flagged for a closer look

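Of the named genes and of the sums of histone families and gene lists given above, 3 had 1 KO library apart from the other KO libraries, each time KO 3. The H2B genes summed to 126.7 CPM in KO 3, against 108 to 110.4 CPM in the other KO libraries and 75.6 to 104 CPM in the flox libraries; without Hist1h2bg the H2B sum was 111 CPM in KO 3 and 88.1 to 98.9 CPM in the other KO libraries. The erythroid markers summed to 42850 CPM in KO 3, against 31960 to 32900 CPM in the other KO libraries and 20470 to 34680 CPM in flox. Aurkb, a mitotic kinase gene, stood at 140.8 CPM in KO 3, against 122 to 124 CPM in the other KO libraries and 118 to 124 CPM in flox. Of 68 such groups examined, chance alone sets about 1 in 20 apart.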

How the results depend on the processing

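The median log2 fold change of the tested histone genes stayed above 0 under all 15 alternatives, between 0.22 without KO 3 and 0.35 without KO 2, and the log2 ratio of summed CPM ran from 0.20 without flox 2 to 0.36 without flox 1. The number called at an adjusted p under 0.05 was 0 under all alternatives except DESeq2, which called 1, beside 365 of all 17920 genes. With no filter on low counts, the number higher in KO at an unadjusted edgeR p under 0.05 was 14 of 58. That setting also tests histone genes with very few counts, among 30951 genes in all. When single libraries were left out, the number higher was between 3 and 14. The number lower was 0 throughout. The share of all genes at this level is not given for the alternatives. Deviations of samples with the same replicate number had correlations of -0.0221, 0.0768 and 0.0228, against -0.0851 to 0.0543 for different numbers. These few values give no clear sign of pairing but cannot exclude it. With the replicate number as a block, 5 histone genes were higher at an unadjusted edgeR p under 0.05. In that fit 0 passed the adjusted threshold, and the median was 0.33. Of the values of named histone genes, 334 kept direction and side of the threshold, 1 passed it (Hist1h2bg, DESeq2), and 7 turned sign, in genes near 0: Hist1h2af at -0.0797 without KO 3 and -0.0449 without flox 3 (highest 0.548 with a library left out), Hist1h2bc at -0.0174 without flox 2 (highest 0.197), Hist1h3c at -0.0516 without KO 1 (highest 0.207), and Hist1h4i at -0.0223 without KO 1, -0.0499 without KO 3 and -0.133 without flox 2 (highest 0.0987). With a library left out, 15 of the 23 named genes moved by over 1.5 times, among them Hist1h1c (0.149 without flox 2, 0.415 without flox 1) and Hist1h1b (0.0307 without KO 1). The cause was not tested.

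Depth limits most histone genes: 27 of the 52 had under 100 counts in every library. Sequence shared between copies, or with genes that overlap them, leaves the split of reads uncertain.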

Other observations

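Histone pseudogenes of the same clusters, which the choice of genes left out, were counted at low levels. Hist1h2aj had 27, 40, 59 and 66 counts in KO and 60, 29 and 42 counts in flox. Hist3h2bb-ps had 12 to 19 counts in KO and 4 to 18 counts in flox, and Hist1h2al, which lies outside the main Hist1 cluster at chr13:51202727-51203065, had 2 to 4 counts in KO and 1 count in each flox library.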
